A study of Mus musculus with 6 samples.

Results

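The 10 chemokine genes of mouse embryonic fibroblasts (MEFs) that are described here are Cxcl1, Cxcl2, Cxcl5, Cxcl10, Cxcl12, Cxcl14, Ccl2, Ccl5, Ccl7 and Cx3cl1. They were chosen by name, as CXC, CC and CX3C chemokines that fibroblasts make, and all 10 were found among the 55335 genes of the deposited table. MEFs are adherent connective tissue cells, here a wild-type (WT) line labelled as fibroblasts and grown in DMEM with fetal bovine serum. Confine cells had crossed a transwell membrane with 3 μm pores and were collected after 15 h, and Ctrl cells were the parental MEFs with no other treatment named. Polyadenylated RNA was sequenced, and the authors deposited raw read counts per gene for 3 Ctrl and 3 Confine columns. The columns of Confine replicates 1 and 2 held the same count in all 55335 genes and were counted as 1 sample, called Confine replicate 2 here, which leaves 3 Ctrl and 2 Confine libraries. Nothing in the labels says that the libraries of a group came from separate cultures, so p-values measure the spread between these samples, which may be technical. Passage through the pores, culture on the membrane and selection of the cells that crossed cannot be told apart. The authors' transwell method, given for inserts with wider pores, put cells in serum-free medium above complete medium. Whether this also held for the 3 μm inserts is not stated, so an effect of serum cannot be told apart either.

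Chemokines are small secreted proteins that bind G protein-coupled receptors and direct the movement of leukocytes and other cells. Their classes are named for the spacing of the first cysteines of the mature protein. CC chemokines have adjacent cysteines, CXC chemokines have a single residue between them, and Cx3cl1 has a wider gap and is made on a membrane stalk. CXC chemokines with the residues Glu-Leu-Arg (ELR) just before the first cysteine attract neutrophils, while Ccl2 and Ccl7 attract monocytes. Stromal cells are known as a source of Cxcl12, which retains blood stem cells and B cell precursors in the marrow.

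The class of each gene can be read in its coding sequence. The windows below are taken from the GENCODE M21 transcripts (GRCm38), run 5′ to 3′ on the coding strand, and show the codons of the first cysteines of the motif in capitals. In the CXC genes the capitals are separated by 1 codon.
Cxcl1: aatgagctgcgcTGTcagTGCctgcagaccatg
Cxcl5: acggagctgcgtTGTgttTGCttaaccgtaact
Cxcl12: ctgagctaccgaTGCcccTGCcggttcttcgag
In Cxcl1 and Cxcl5 the first cysteine follows codons for Glu, Leu and Arg, which Cxcl12 lacks. Of the 7 remaining genes, Cxcl2 also has the ELR codons, and Cxcl10 and Cxcl14 do not. In the CC genes the cysteine codons are adjacent, and in Cx3cl1 they are separated by 3 codons.
Ccl2: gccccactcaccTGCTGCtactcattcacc
Ccl5: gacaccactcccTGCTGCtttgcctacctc
Ccl7: aatgcatccacaTGCTGCtatgtcaagaaa
Cx3cl1: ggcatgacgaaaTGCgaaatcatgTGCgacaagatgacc

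Depth ran from 22287210 to 27853805 counts per library in Ctrl and was 32537550 and 27290138 counts in Confine replicates 2 and 3. Levels are given as normalized CPM, counts relative to the library size after TMM scaling, and on this scale 3 counts amount to between 0.101 and 0.128. Differences are log2 fold changes of Confine against Ctrl from edgeR's quasi-likelihood test over the 15881 genes that passed its filter on low counts. A gene is said to have risen or fallen at a Benjamini-Hochberg adjusted p under 0.05 over all of them. Scaling by library size without TMM shifted the median difference of all tested genes by -0.21. The fibroblast markers Col1a1, Col3a1, Vim and Fn1 were abundant in all 5 libraries, while Thy1, Lum and Fap had at most 3 counts in any library. Among 15 leukocyte markers, 5 were at 0 counts in every library, among them Adgre1, Cd3e, Tyrobp and Cd52, and Ptprc had at most 3 counts. The summed leukocyte markers were 19.8 to 24.3 normalized CPM in Ctrl and 37.2 to 44.7 in Confine. In that list 3 genes rose (Cd68, Cd14 and Csf1r) and 2 fell (Lyz2 and Coro1a), and their part in the chemokine results was not tested. Without Confine replicate 2, Cd14 (adjusted p = 0.0683), Csf1r (0.0667) and Coro1a (0.239) did not pass. Csf1r also failed without Ctrl replicate 2 (0.0517) or Ctrl replicate 3 (0.114), with DESeq2 in place of edgeR (0.0844) and with library size alone (0.0662). Without Confine replicate 3, Csf1r did not pass either, at a log2 fold change of 1.12. Csf1r and Coro1a overlap the more highly counted Hmgxb3 and Bola2 on the opposite strand, so their reads are uncertain. Summed endothelial markers were 4.91 to 8.12 in Ctrl and 3.58 to 5.04 in Confine. Among them Vwf was higher (log2 fold change 2.64, adjusted p = 3.20e-04) and Erg lower (-1.81, adjusted p = 8.92e-04). Vwf had low counts and was not tested where at least 10 counts in every library were required. Epithelial markers did not exceed 0.675 in any library.

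Of the 10 chemokine genes, 8 passed the filter on low counts. Ccl5 and Cx3cl1 rose in Confine, Cxcl12 and Ccl7 fell, and 4 did not pass the test (Cxcl1, Cxcl5, Cxcl10 and Ccl2). Cxcl2 and Cxcl14 had too few counts to test. Over all genes tested, 23.0% were called, 12.8% as higher and 10.2% as lower. Over the 8 tested members the median log2 fold change was 0.032, against -0.0021 over all genes that entered the test. With the added cutoff of 1.5 on the absolute log2 fold change, Ccl5 was the member called higher and Cxcl12 the member called lower, beside 4.89% and 3.11% of all tested genes. The 4 called members were also those whose Ctrl and Confine libraries did not overlap, while 25.9% of all tested genes had both Confine libraries above Ctrl and 23.6% had both below. In RNA from bulk cells, fewer cells making a transcript and less of it per cell cannot be told apart.

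**Figure D1:**
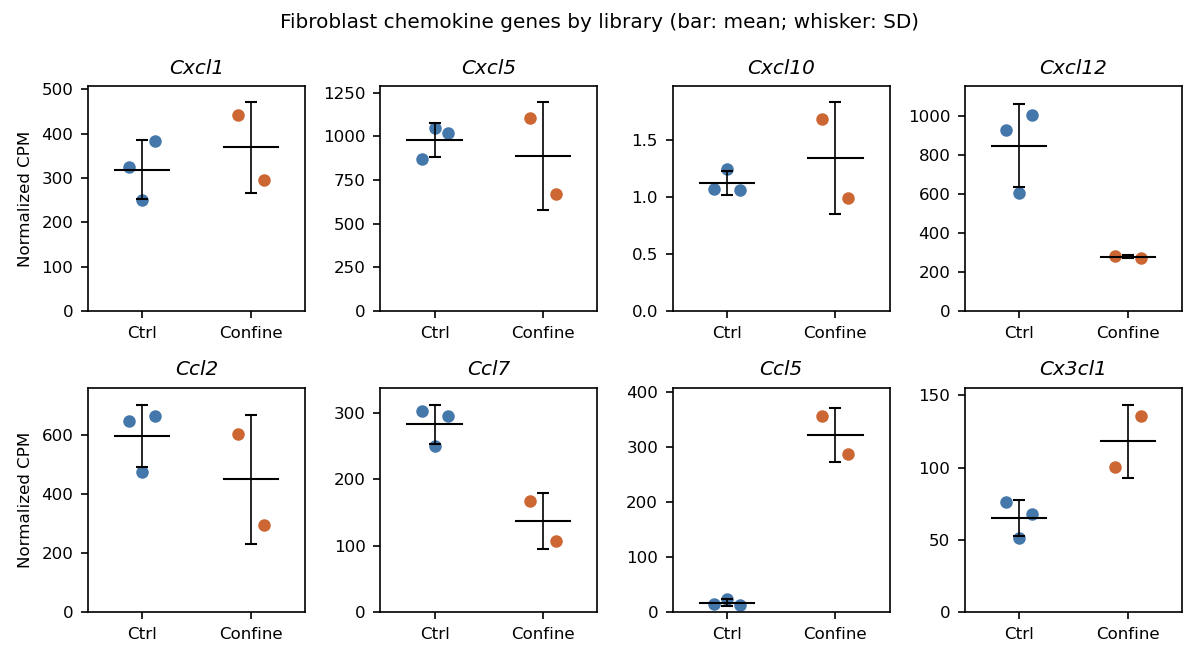
Normalized CPM of the 8 tested chemokine genes, 1 panel per gene, with a point for each of 3 Ctrl and 2 Confine libraries, a bar at the mean and whiskers of 1 SD; each vertical axis is linear, starts at 0 and has its own range. Ccl5 and Cx3cl1 lay higher in both Confine libraries than in any Ctrl library, Cxcl12 and Ccl7 lay lower in both, and the groups of Cxcl1, Cxcl5, Cxcl10 and Ccl2 overlapped.

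Ccl5 (RANTES), which attracts T cells and monocytes through Ccr1, Ccr3 and other receptors, had the largest difference of the members tested. The gene (ENSMUSG00000035042.2) lies on the minus strand at chr11:83525778-83530518 (GRCm38, as for all positions here). Its raw counts were 418, 651 and 311 in Ctrl replicates 1, 2 and 3 and 10540 and 7235 in Confine replicates 2 and 3. In normalized CPM these were 14.4, 24.6 and 13.2 in Ctrl (17.4 ± 6.25, SD, n = 3) and 356 and 287 in Confine (322 ± 48.7, SD, n = 2). Both Confine libraries were more than 10 times above the highest Ctrl library, and the groups were far apart relative to the spread within each. Ccl5 rose by 4.21 on the log2 scale (SE 0.25, 95% interval 3.69 to 4.72, adjusted p = 7.18e-10), or 18.5-fold. The log2 fold change stayed between 4.03 and 4.53 when any single library was left out, and its call held in all 14 alternative fits.

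Cx3cl1 (fractalkine), an adhesion molecule and chemoattractant for cells with Cx3cr1, lies on the plus strand at chr8:94772009-94782427 (ENSMUSG00000031778.13). It stood at 75.9, 51.6 and 67.9 normalized CPM in Ctrl (65.1 ± 12.4, SD, n = 3) and at 100.2 and 136 in Confine (118 ± 25.2, SD, n = 2). Ctrl replicate 2 was the lowest library and Confine replicate 3 the highest, with no overlap between the groups. Cx3cl1 rose by 0.86 on the log2 scale (SE 0.20, 95% interval 0.43 to 1.28, adjusted p = 0.00429), or 1.81-fold. Without Confine replicate 3, the difference was 0.62 and the gene did not pass the test (adjusted p = 0.154).

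Cxcl12, the ligand of Cxcr4 and Ackr3, was the member with the lowest fold change. It lies on the plus strand at chr6:117168535-117181367 (ENSMUSG00000061353.11). It had 26834, 15966 and 23594 counts in Ctrl and 8371 and 6855 in Confine, or 927, 603 and 1003 normalized CPM in Ctrl (845 ± 212, SD, n = 3) and 283 and 272 in Confine (277 ± 7.52, SD, n = 2). The lowest Ctrl library, replicate 2, was still above both Confine libraries, which lay close together. Cxcl12 fell by 1.61 on the log2 scale (SE 0.22, 95% interval -2.07 to -1.14, adjusted p = 2.72e-05), and was 3.04-fold lower. Over the 14 alternative fits the log2 fold change ran from -1.81 to -1.48, with a highest adjusted p of 0.00154.

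Ccl7 and Ccl2 are neighbours on chromosome 11 that both signal through Ccr2, the receptor of inflammatory monocytes. Ccl7 (ENSMUSG00000035373.2, chr11:82045712-82047525, plus strand) was at 302, 249 and 296 normalized CPM in Ctrl (282 ± 28.7, SD, n = 3) and at 167 and 108 in Confine (137 ± 41.8, SD, n = 2). Each Ctrl library was above both Confine libraries. Ccl7 fell by 1.04 on the log2 scale (SE 0.21, 95% interval -1.48 to -0.60, adjusted p = 0.00114) and was 2.05-fold lower. Without Confine replicate 3 the log2 fold change was -0.76 and no longer passed (adjusted p = 0.0549). Ccl2 (ENSMUSG00000035385.5, chr11:82035571-82037453, plus strand) was at 647, 474 and 664 normalized CPM in Ctrl (595 ± 105, SD, n = 3) and at 603 and 295 in Confine (449 ± 218, SD, n = 2). Confine replicate 2 lay within the Ctrl range and Confine replicate 3 below it. The fitted log2 fold change of Ccl2 was -0.41 (SE 0.25, 95% interval -0.93 to 0.12, adjusted p = 0.268). Its value rested on which Confine library was used, at -1.01 without replicate 2 (adjusted p = 0.0148) and 0.018 without replicate 3 (adjusted p = 0.980). Whether Ccl7 and Ccl2 differed from each other in their response was not tested.

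The neutrophil chemokines Cxcl1 and Cxcl5, which signal through Cxcr2, were abundant in both groups and did not pass the test. Cxcl1 (ENSMUSG00000029380.11, chr5:90891241-90893115, plus strand) was at 325, 249.8 and 383 normalized CPM in Ctrl (319 ± 66.6, SD, n = 3) and 442 and 296 in Confine (369 ± 103, SD, n = 2). One Confine library was above the Ctrl range and the other within it. Its log2 fold change was 0.21 (95% interval -0.24 to 0.66, adjusted p = 0.537). Cxcl5 (ENSMUSG00000029371.7, chr5:90759360-90761624, plus strand) was at 870, 1049 and 1021 in Ctrl (980 ± 96.3, SD, n = 3) and 1105 and 668 in Confine (886 ± 309, SD, n = 2). Here the Confine libraries lay on either side of all 3 Ctrl libraries. The log2 fold change of Cxcl5 was -0.14 (95% interval -0.58 to 0.29, adjusted p = 0.678). The sign of both depended on 1 library, since Cxcl1 was at -0.11 without Confine replicate 2 and Cxcl5 at 0.17 without Confine replicate 3. Cxcl2, the third ELR member (ENSMUSG00000058427.10, chr5:90903871-90905938, plus strand), had 1, 0 and 2 counts in Ctrl and 9 and 0 in Confine. At this depth no difference was detectable. Cxcl2 shares at least 100 bases at 95% identity or more with Cxcl3, which also lies on chromosome 5, so the reads of Cxcl2 are uncertain.

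Cxcl10, an interferon-induced attractant of activated T cells, was scarce in both groups. The gene (ENSMUSG00000034855.13, chr5:92346638-92348889, minus strand) had 31, 33 and 25 counts in Ctrl and 50 and 25 in Confine. These are 1.07, 1.25 and 1.06 normalized CPM in Ctrl (1.13 ± 0.104, SD, n = 3) and 1.69 and 0.993 in Confine (1.34 ± 0.493, SD, n = 2), with Confine libraries on both sides of Ctrl. Its log2 fold change was 0.26 (95% interval -0.63 to 1.14, adjusted p = 0.719), and -0.18 without Confine replicate 2. Cxcl10 overlaps Art3 on the opposite strand and shares at least 100 bases at 95% identity or more with it. Art3 had a mean of 1.2 counts against 32.8 for Cxcl10. Cxcl14 (ENSMUSG00000021508.11, chr13:56288643-56296551, minus strand), a chemokine of epithelium and some fibroblasts, was at 0 counts in all 5 libraries, which allows up to 3 counts in each. Those 3 counts are 0.101 to 0.128 normalized CPM, and intervals and floors of this kind cover counting error only.

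**Figure D2:**
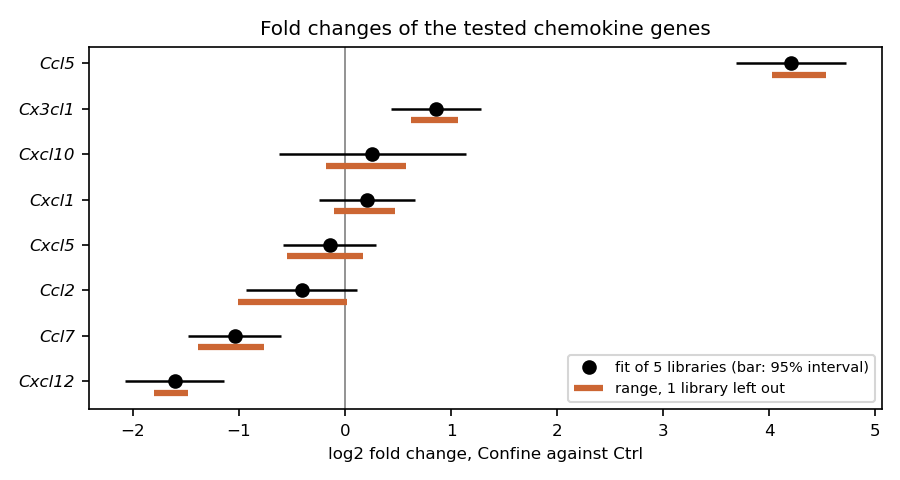
Log2 fold change of Confine against Ctrl for the 8 tested chemokine genes, with 95% intervals (black) and the range over fits that each leave out 1 library (orange). The intervals of Ccl5 (3.69 to 4.72) and Cx3cl1 (0.43 to 1.28) lie above 0, those of Ccl7 (-1.48 to -0.60) and Cxcl12 (-2.07 to -1.14) below 0, and the other 4 cross it.

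The 2 Confine libraries differed from each other over these genes. In 7 of the 8 tested members the normalized CPM was higher in Confine replicate 2 than in Confine replicate 3, by a factor of 1.04 in Cxcl12 to 2.05 in Ccl2, with Cx3cl1 the exception at 0.738. The median factor was 1.52 over the members. Over the 15846 tested genes with at least 1 count in Confine replicate 3 it was 0.992, and 0.486 to 1.68 between the 5th and 95th percentiles. Of all counts, the members together took 0.329%, 0.293% and 0.364% in Ctrl, while their share was 0.278% in Confine replicate 2 and 0.190% in Confine replicate 3. What set the Confine libraries apart was not tested.

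Per kilobase of annotated exons, the order of the levels differed between the groups. In Ctrl, Cxcl5 (526 ± 51.7 normalized CPM per kb, SD, n = 3) and Ccl2 (523 ± 92.3) led and overlapped. They were followed by Ccl7 (352 ± 35.8), Cxcl1 (170 ± 35.5) and Cxcl12 (103 ± 26.0), and then by Ccl5 (18.1 ± 6.51) and Cx3cl1 (16.6 ± 3.15), whose libraries overlapped. Cxcl10 stood at 0.500. In Confine, the libraries of Cxcl5 (476 ± 166, SD, n = 2), Ccl2 (395 ± 192) and Ccl5 (335 ± 50.7) overlapped at the top. Next came Cxcl1 (197 ± 55.2) and Ccl7 (171 ± 52.1), which overlapped, then Cxcl12 (33.9 ± 0.920) and Cx3cl1 (30.0 ± 6.42), which overlapped as well. Cxcl10 was at 0.595. On the length of the longest coding transcript in place of all exons, Ccl2 (732 ± 129 normalized CPM per kb) came before Cxcl5 (622 ± 61.2) in Ctrl, and Ccl5 (605 ± 91.5) before Cxcl5 (563 ± 196) and Ccl2 (552 ± 268) in Confine. The libraries of these neighbours overlapped here too, so the mean order at the top rests on the length used and is not separated by the libraries. As a share of the members' summed CPM per kb, Ccl5 made up 0.867%, 1.67% and 0.741% in Ctrl and 18.6% and 23.4% in Confine. The share of Ccl7 was 21.7%, 20.2% and 19.8% in Ctrl and 10.4% and 10.5% in Confine. Cxcl12 took 6.54%, 4.80% and 6.60% in Ctrl and 1.73% and 2.61% in Confine. Cxcl5, at 26.9% to 36.6% in Ctrl, took 29.7% and 28.1% in Confine.

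**Figure D3:**
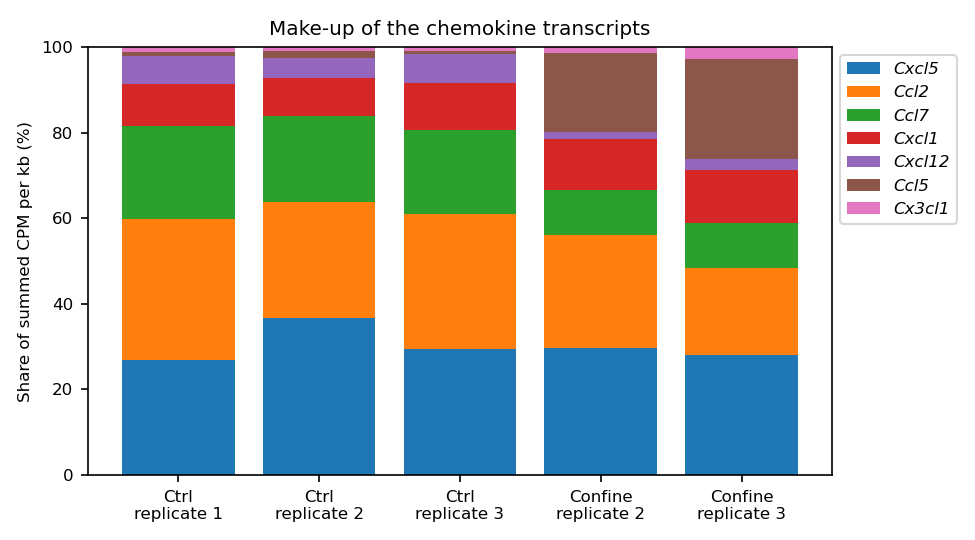
Share of the summed normalized CPM per kb of exon that each chemokine gene takes, in percent, in 3 Ctrl and 2 Confine libraries; Cxcl2, Cxcl10 and Cxcl14 are too low to draw. The brown band of Ccl5 is between 0.741% and 1.67% in Ctrl and is 18.6% and 23.4% in Confine, while the bands of Ccl7 and Cxcl12 are narrower in Confine.

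Of the members, 6 have an entry in the RefSeq promoter table (GRCm38.p6), namely Cxcl1, Cxcl2, Cxcl10, Cxcl12, Cxcl14 and Cx3cl1. The 250 bases before the RefSeq start are shown for Cxcl12, which fell, and for Cxcl1 and Cxcl10, which did not pass the test. Motif matches are in capitals, and each sequence runs 5′ to 3′ on the strand of the gene.
Cxcl1, chr5:90890995-90891244, plus strand: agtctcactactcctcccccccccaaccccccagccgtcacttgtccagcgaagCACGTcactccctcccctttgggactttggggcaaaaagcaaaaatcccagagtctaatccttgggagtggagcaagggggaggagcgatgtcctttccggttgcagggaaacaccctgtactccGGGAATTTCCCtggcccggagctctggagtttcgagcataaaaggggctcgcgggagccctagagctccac
Cxcl10, chr5:92348890-92349139, minus strand: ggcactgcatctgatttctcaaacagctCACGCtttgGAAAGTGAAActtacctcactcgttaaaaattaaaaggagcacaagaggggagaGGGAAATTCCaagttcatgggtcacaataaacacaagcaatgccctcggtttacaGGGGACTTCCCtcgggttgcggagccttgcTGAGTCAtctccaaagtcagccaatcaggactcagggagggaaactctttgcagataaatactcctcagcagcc
Cxcl12, chr6:117168285-117168534, plus strand: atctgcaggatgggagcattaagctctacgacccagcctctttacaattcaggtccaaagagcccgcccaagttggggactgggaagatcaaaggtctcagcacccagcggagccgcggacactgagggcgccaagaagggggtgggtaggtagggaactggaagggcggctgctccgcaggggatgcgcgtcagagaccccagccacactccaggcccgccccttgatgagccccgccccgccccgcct
Both strands were searched for the NF-kB consensus, the AP-1 motif TGANTCA, the interferon-stimulated response element (ISRE: TTTC, any 2 bases, TTTC), the hypoxia response cores ACGTG and GCGTG, and TATAAA. Cxcl1 held 2 overlapping NF-kB matches that begin 71 and 70 bases before the start, and a hypoxia core at 196. Cxcl2 held 2 overlapping NF-kB matches, at 97 and 96 bases, and 2 hypoxia cores. Cxcl10 held NF-kB matches at 159, 104 and 103 bases, of which the last 2 overlap, an AP-1 match at 74, an ISRE match at 213 and a hypoxia core at 222. None of these motifs was found in the window of Cxcl12. Cx3cl1, which rose, held TATAAA in the 6 bases before the RefSeq start and none of the other motifs. Its 250 bases (chr8:94771930-94772179) run past the GENCODE start of the gene at 94772009. They therefore lie partly inside the annotated gene and cover little of the sequence before that start. Cxcl14 held an ISRE match and 2 hypoxia cores. Whether the motifs bear on the differences between the groups was not tested. Among all 32851 promoter windows of 300 bases in the table, 8.46% held the NF-kB consensus, 7.81% the AP-1 motif, 3.44% the ISRE, 43.8% a hypoxia core and 13.6% TATAAA. A match describes these letters and is not evidence of binding.

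Of 31 other chemokine ligand genes, 30 were found, 11 of them at 0 counts in every library, and 14 were tested, of which 5 rose and 3 fell in Confine. Ccl3, which binds Ccr1 as Ccl5 does, had 2, 0 and 0 counts in Ctrl and 244 and 97 in Confine. Its summed normalized level was 245.6 times higher in Confine, with a 95% counting interval of 67.5 to 2036. Ccl3 passed the filter only through Confine, and its fitted log2 fold change of 7.66 (adjusted p = 8.07e-08), which depends on the prior count, ran from 7.01 to 10.31 when a library was left out. Cxcl16, which like Cx3cl1 is made on a membrane stalk, rose by 1.99 on the log2 scale (adjusted p = 2.73e-04), with 33, 21 and 30 counts in Ctrl and 144 and 91 in Confine. Ccl17, 64.9 kb from the first gene of the cluster that holds Cx3cl1, rose by 1.76 (adjusted p = 7.25e-05), with 77, 73 and 85 counts in Ctrl and 242 and 309 in Confine. Ppbp, a platelet chemokine 9.16 kb from the start of Cxcl5, fell by 1.74 (adjusted p = 6.58e-04), with 126, 106 and 143 counts in Ctrl and 48 and 31 in Confine. The other 4 called ligands had fewer than 100 counts in any library. Pf4 fell by 1.93 (adjusted p = 0.0299) and Cxcl15 fell by 2.55 (adjusted p = 0.0179), and Ccl8 rose by 2.20 (adjusted p = 0.0394). Pf4 and Cxcl15 passed the filter on low counts only through Ctrl, and Ccl8 only through Confine. Without Confine replicate 3 the adjusted p of these 3 genes was 0.226, 0.193 and 0.147. Ccl8 also failed without Ctrl replicate 1 (0.117) or Ctrl replicate 3 (0.0990), and Pf4 without Ctrl replicate 2 (0.0678). Without Confine replicate 2, Ccl8 and Pf4 did not pass either, at log2 fold changes of 1.99 and -2.48. With DESeq2 in place of edgeR, Ccl8 (adjusted p = 0.134) and Pf4 (0.0562) did not pass. Ccl8 failed with library size alone as well (0.0558). Cxcl17, named after its values were seen, rose by 1.23 (adjusted p = 0.0210), but not without Ctrl replicate 1 (0.0908), Confine replicate 2 (0.139) or Confine replicate 3 (0.0732), and it overlaps the antisense gene 4732471J01Rik, which had more counts.

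The members lie in clusters with other ligand genes, except Cxcl12 and Cxcl14. In the cluster that opens with Cxcl5 on chromosome 5, Ppbp, Pf4 and Cxcl15, which fell, stand between Cxcl5 and Cxcl1, which did not pass and start 132 kb apart. Beside Ccl2 on chromosome 11, Ccl7 at 10.1 kb fell and Ccl8 at 79.6 kb rose. Further along chromosome 11, Ccl5 rose, Ccl9 and Ccl6 at 47.1 and 62.1 kb did not pass, and Ccl3 at 122 kb rose. On chromosome 8, Cx3cl1 and Ccl17 rose, while Ccl22, the first gene of that cluster, had at most 1 count. Cxcl10 was counted at low levels, and its neighbours Cxcl9 and Cxcl11 on chromosome 5 had at most 1 count.

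**Figure D4:**
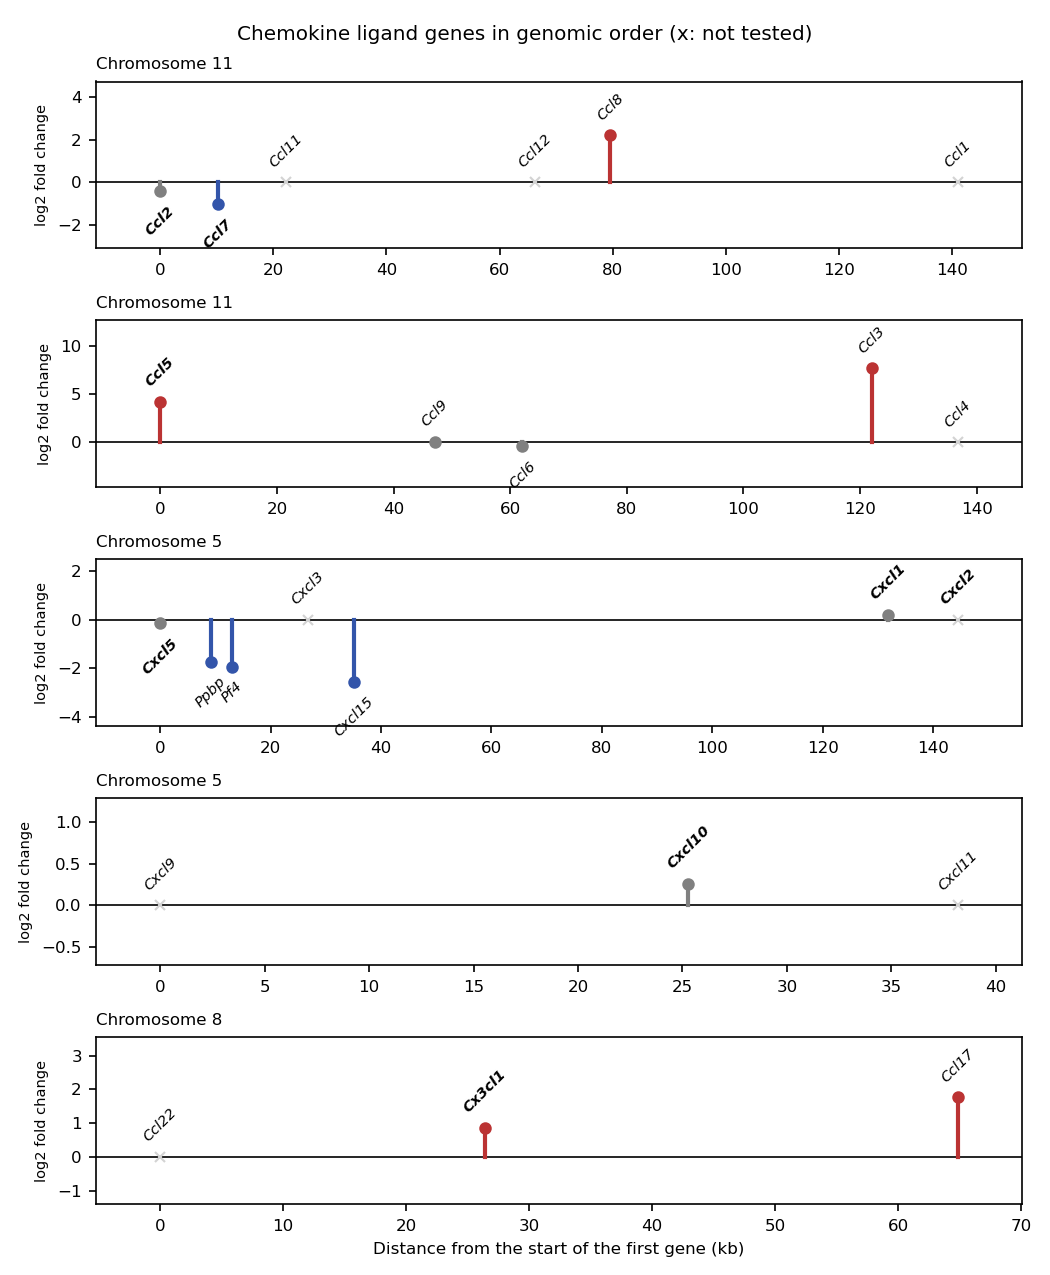
Log2 fold change of Confine against Ctrl (vertical) for chemokine ligand genes in 5 clusters, by distance in kb from the start of the first gene; members are in bold, red marks genes that rose, blue genes that fell, grey genes that did not pass, and crosses at 0 genes that were not tested. Ccl5 and Ccl3 rose 122 kb apart with Ccl9 and Ccl6, which did not pass, between them, and Ppbp, Pf4 and Cxcl15 fell next to Cxcl5.

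The receptors of the members were scarce in these cells. Of 24 chemokine receptor genes, 9 were at 0 counts in all libraries and 4 were tested. Cxcr4, Cxcr2, Cxcr3 and Ccr2, which bind Cxcl12, the ELR chemokines, Cxcl10, and Ccl2 with Ccl7, were at 0 counts throughout. Cx3cr1, the receptor of Cx3cl1, had at most 4 counts in a library. Ackr3, an atypical receptor that takes up Cxcl12, had 11, 4 and 5 counts in Ctrl and 111 and 150 in Confine. It rose by 4.24 on the log2 scale (SE 0.43, adjusted p = 9.78e-07). Xcr1, whose ligand gene Xcl1 was at 0 counts, had 9, 15 and 5 counts in Ctrl and 200 and 100 in Confine. Its log2 fold change was 3.86 (SE 0.41, adjusted p = 1.76e-06). Ackr3 and Xcr1 passed the filter on low counts only through Confine, where they were high. Cxcr6, the receptor of Cxcl16, rose by 1.40 (SE 0.24, adjusted p = 3.11e-04). Cxcr6 overlaps Fyco1 on the opposite strand, with a mean of 950.4 counts against 326.2, so its reads are uncertain.

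Of 6 proteases that cut chemokines, 5 were tested and 2 rose. Adam17, a sheddase of Cx3cl1, was at 48.1, 54.3 and 47.3 normalized CPM in Ctrl and 82.1 and 75.1 in Confine, and rose by 0.65 on the log2 scale (SE 0.18, adjusted p = 0.0113). It did not pass without Ctrl replicate 1 (adjusted p = 0.0550), Confine replicate 2 (0.130) or Confine replicate 3 (0.0662), nor with library size alone (0.0747). Adam10, which also sheds Cx3cl1, had a log2 fold change of 0.18 (adjusted p = 0.582). Mmp9, a gelatinase that trims several CXC chemokines, had 30, 12 and 25 counts in Ctrl and 362 and 474 in Confine, and rose by 4.18 (SE 0.32, adjusted p = 3.26e-08). Dpp4, which clips Cxcl12 and Cxcl10, had at most 1 count.

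Among 18 transcription factors, inhibitors and mRNA decay factors that act on chemokine genes, 6 rose, and the median log2 fold change was 0.44. Tnfaip3 (A20), which inhibits NF-kB signalling, rose by 2.15 (adjusted p = 3.54e-06), Nfkbiz, a nuclear cofactor of NF-kB, by 1.53 (adjusted p = 5.38e-06), and Nfkbia, which holds NF-kB in the cytoplasm, by 1.25 (adjusted p = 5.97e-05). Zc3h12a (Regnase-1), a nuclease that acts on inflammatory mRNAs, rose by 1.17 (adjusted p = 1.90e-04). The subunit gene Relb rose by 0.86 (adjusted p = 0.00360; 0.0610 without Confine replicate 3). Nfkb1 rose by 0.65 (adjusted p = 0.0118), but not without Ctrl replicate 1 (0.0629), Confine replicate 2 (0.125) or Confine replicate 3 (0.0762), nor with library size alone (0.0794).

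**Figure D5:**
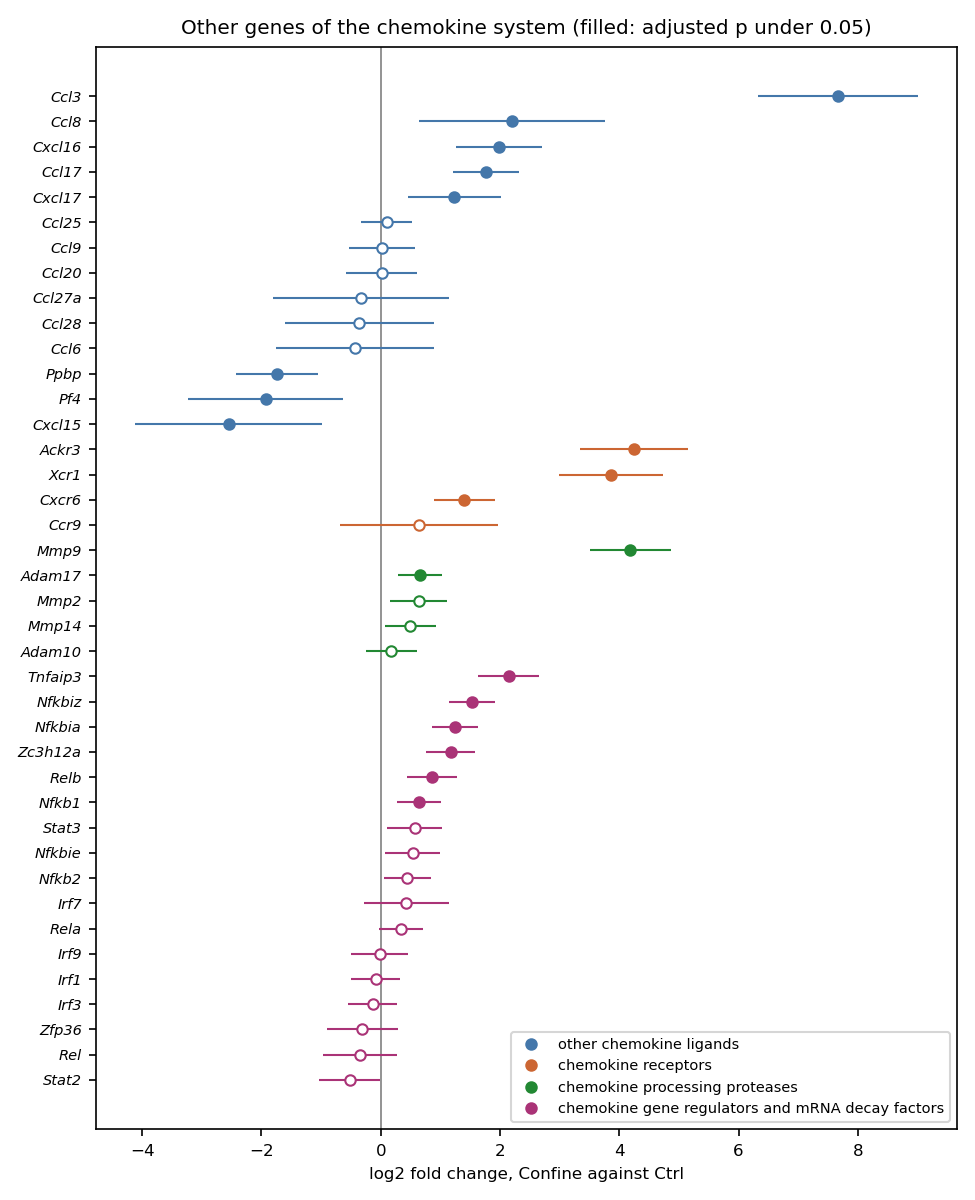
Log2 fold change of Confine against Ctrl with 95% intervals for tested genes of 4 lists, in colours: other ligands, receptors, proteases and regulators; filled points have an adjusted p under 0.05 and open points do not. Ackr3 (4.24), Mmp9 (4.18) and Xcr1 (3.86) lie far to the right and Cxcl15 (-2.55) farthest to the left, while the fitted value of Ccl3 depends on the prior count because Ctrl held 2 counts in all.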

How the data were processed

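The deposited table holds raw counts, made by the authors, in 6 columns (3 Ctrl, 3 Confine). Per the labels, libraries were made from polyadenylated RNA by a dUTP method. The submitters' processing notes name Trim Galore 0.6.10, HISAT2 2.1.0, SAMtools 1.5, featureCounts and mm10. The annotation and the strand setting are not given in the sources used here, and could move counts between overlapping genes. GENCODE M21 (GRCm38), which holds 54587 of the 55335 identifiers in the same version and 55154 in any version, gave names, positions and exon lengths.

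Members and gene lists were chosen with earlier results of these data known. The 2 identical Confine columns were counted once. Counts were filtered (filterByExpr, minimum 10), scaled by TMM (factors 1.04, 1.08 and 1.06 in Ctrl, 0.910 and 0.924 in Confine) and tested with edgeR 4.0.16 in R 4.3.3, with 3 residual degrees of freedom. The SE is the log2 fold change divided by the root of F. All members were named. Of the other lists, called genes were named where at most 6 passed and otherwise the 6 with the largest change, and genes with 100 counts or more in a library could be added. Sequence copies were searched with blastn 2.17.0 at 95% identity over 100 bases. The test was also run on counts simulated with the spread that it fitted to these libraries. Such counts cannot show whether that spread is technical. Alternatives were DESeq2 1.42.0, limma-voom (3.58.1), other scalings and filters, the replicate block, leaving out each library and a fold cutoff of 1.5. Columns of per-sample values left unused numbered 0. Some genes of the lists are not reported here.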

Additional observations from a re-analysis of the deposited data

How the results depend on the processing

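The calls of Ccl5 and Cxcl12 held in all 14 alternative fits, and those of Ccl7 and Cx3cl1 in all but 1, the fit without Confine replicate 3. The fold cutoff of 1.5 also left out Ccl7 and Cx3cl1. Of 112 member fold changes recomputed in an alternative fit, 104 kept their direction and side of the threshold and 8 did not. Of 120 counts of called genes, 100 stayed within 1.5 times the main count and 20 did not, and the cause was not tested. Leaving out each library in turn gave 1 to 2 members higher and 1 to 3 lower, 1196 to 2411 genes higher and 850 to 2015 lower over all tested genes, 3 to 5 other ligands higher and 1 to 3 lower, and 3 receptors higher. The lone Confine library was then assumed to vary like Ctrl. Signs reversed for Cxcl1 (-0.11 without Confine replicate 2), Cxcl5 (0.17 without Confine replicate 3), Cxcl10 (-0.18 without Confine replicate 2) and Ccl2 (0.018 without Confine replicate 3). The ranges were -0.11 to 0.47 for Cxcl1, -0.55 to 0.17 for Cxcl5, -0.18 to 0.58 for Cxcl10, -1.01 to 0.018 for Ccl2, -1.39 to -0.76 for Ccl7 and 0.62 to 1.06 for Cx3cl1.

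With the fold cutoff of 1.5, 1 member was higher and 1 lower, and 777 genes were higher and 494 lower over all tested genes, against 2035 and 1619. With library size alone, 2805 genes were lower and 3 other ligands higher. Counting the repeated library as 2 samples gave 2456 lower genes. With at least 10 counts in every library, 3 other ligands were higher and 1 lower, and 1 receptor was higher. Genes under about 10 counts are limited by depth.

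Replicate numbers are shared between groups by label alone. Deviations of same-numbered libraries correlated at -0.053 across all tested genes with the repeated library as number 2 and at 0.052 as number 1, across genes that are not independent. With the replicate block, 1 residual degree of freedom was left. The block gave 3 other ligands higher with the library as number 2, and as number 1 a value of -0.64 for Ccl2 (adjusted p = 0.0275). Members called higher stayed at 2 with either numbering.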

Other observations

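The fibroblast markers used to check the cells also differed between the groups. Of 12 markers, 8 were tested and 5 rose in Confine, beside 12.8% of all tested genes called higher. Pdgfrb went the other way, at -0.36 (adjusted p = 0.194). With library size alone it fell (-0.57, adjusted p = 0.0322). The interstitial collagen gene Col3a1 had 7502, 7167 and 5159 counts in Ctrl and 36127 and 27341 in Confine, a log2 fold change of 2.21 (SE 0.18, adjusted p = 5.78e-08). Vim, the intermediate filament protein of mesenchymal cells, had a log2 fold change of 0.97 (adjusted p = 3.51e-04), and Fn1, fibronectin, of 1.04 (adjusted p = 3.09e-04). Col1a1 was at 0.66 (adjusted p = 0.00945), but did not pass without Ctrl replicate 3 (adjusted p = 0.0800) or with library size alone (0.0629). Col1a2, which did not pass, was at 0.24. The summed level of the 12 markers was 8745 to 9602 normalized CPM in Ctrl and 15732 to 16510 in Confine.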
